A study of Homo sapiens with 15 samples.

Results

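The S100 proteins are small calcium-binding proteins of the EF-hand type, and 10 genes of this family were followed by exact gene symbol among the 12995 genes measured in oral cancer lines: S100A2, S100A4, S100A6, S100A7, S100A8, S100A9, S100A10, S100A11, S100A14 and S100A16. They were read from 15 3′ end RNA libraries in 5 groups of 3. OKF6 is an immortalised normal oral epithelial line. SCC15 and SCC25 are oral squamous cell carcinoma lines, which the study describes as mesenchymal-like and basal-like. In the +YBX1 groups both cancer lines carried Cas9 and a doxycycline-inducible guide against YBX1, and received no doxycycline. The -YBX1 groups were the same cells after 3 days of doxycycline at 1 µg/mL. The guides were introduced with lentivirus and the cells sorted on GFP and mCherry, so that each is a mixed population of edited cells and not a clone. Both groups of a line therefore carried the construct, which OKF6 did not. The culture medium was a serum-free keratinocyte medium for OKF6 and SCC25, whereas SCC15 cells were kept in serum-containing DMEM, so that line and medium cannot be told apart. The labels number the libraries of a group 1 to 3 without naming separate cultures, and p-values measure the spread between these libraries, which may be technical.

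S100 proteins form dimers that change shape on binding calcium and then bind partner proteins. S100A8 and S100A9 form calprotectin, a heterodimer that binds zinc and manganese, acts against microbes and is abundant in neutrophils and in stratified squamous epithelium under stress. S100A7 (psoriasin) is a further antimicrobial protein of keratinocytes. S100A10 is a calcium-independent partner of annexin A2 at the plasma membrane, S100A11 binds annexin A1, and S100A6 and S100A4 bind annexins, tropomyosin or non-muscle myosin. S100A2 is a nuclear S100 protein of basal keratinocytes, S100A14 is an epithelial member, and S100A4 is best known as a gene of fibroblasts and of mesenchymal or metastatic cells. Most S100 genes sit side by side in the epidermal differentiation complex, a block of genes for the cornified layer of skin and mucosa.

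All 10 members lay on chromosome 1 within a stretch of 1.634 Mb (hg38, chr1:151982915-153616986, GENCODE v44), S100A10 and S100A11 at one end and the other 8 in the last part of it. The starts of 4 of them are shown first, since the results turn on which members SCC15 cells lacked and which they retained. Each is the 300 bases from 250 before to 50 after the gene start in RefSeq (GRCh38.p14), read 5′ to 3′ on the strand of the gene. RefSeq starts were matched for 10 of 10 members, taking the first listed start of each gene. A RefSeq start can differ from that of GENCODE. The S100A8 window lies wholly upstream of the GENCODE span of that gene, which begins at 153391073 on the minus strand. Capitals mark CpG dinucleotides. S100A10 (chr1:151993810-151994109, minus strand) was retained in SCC15, S100A6 (chr1:153535942-153536241, minus strand) was close to 0 there with a start just as rich in CpG, and the calprotectin genes S100A8 (chr1:153391139-153391438, minus strand) and S100A9 (chr1:153357604-153357903, plus strand) were close to 0 with few CpG.
S100A10: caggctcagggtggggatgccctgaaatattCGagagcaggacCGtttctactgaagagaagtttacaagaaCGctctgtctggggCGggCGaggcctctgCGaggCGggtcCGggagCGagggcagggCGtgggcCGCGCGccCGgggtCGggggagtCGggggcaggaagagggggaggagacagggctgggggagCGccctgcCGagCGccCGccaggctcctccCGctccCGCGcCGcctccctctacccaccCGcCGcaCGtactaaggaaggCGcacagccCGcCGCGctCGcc
S100A6: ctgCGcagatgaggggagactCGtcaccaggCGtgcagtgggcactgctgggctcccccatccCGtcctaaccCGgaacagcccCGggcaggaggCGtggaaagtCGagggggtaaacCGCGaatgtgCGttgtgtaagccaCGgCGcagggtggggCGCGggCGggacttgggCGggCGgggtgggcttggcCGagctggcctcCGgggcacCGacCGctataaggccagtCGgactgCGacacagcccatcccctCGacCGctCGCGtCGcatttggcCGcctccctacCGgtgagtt
S100A8: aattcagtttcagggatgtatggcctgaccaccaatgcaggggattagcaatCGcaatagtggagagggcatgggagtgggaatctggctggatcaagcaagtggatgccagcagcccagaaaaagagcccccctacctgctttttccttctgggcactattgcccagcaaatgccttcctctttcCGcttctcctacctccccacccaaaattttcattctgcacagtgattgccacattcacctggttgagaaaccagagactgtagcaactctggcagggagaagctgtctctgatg
S100A9: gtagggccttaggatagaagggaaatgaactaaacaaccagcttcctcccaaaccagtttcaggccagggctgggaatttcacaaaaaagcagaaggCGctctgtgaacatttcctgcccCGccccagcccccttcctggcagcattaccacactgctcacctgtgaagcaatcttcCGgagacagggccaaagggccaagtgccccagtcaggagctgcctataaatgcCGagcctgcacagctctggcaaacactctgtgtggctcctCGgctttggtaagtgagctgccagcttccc

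These windows held 32 CpG for S100A10, 31 for S100A6, 2 for S100A8 and 5 for S100A9. For S100A8, here and below, the letters are those of the window upstream of its GENCODE span and not of its GENCODE start. S100A11 had 22, and the other members had between 3 and 8. The median over the 10250 table genes with a RefSeq start was 27. The letters CCAAT, a site that the YBX1 protein was first described to bind, occurred on either strand in 1 of 10 members, S100A8, at position -219 from the start, against 36.6% of those 10250 windows. The AP-1 letters TGANTCA occurred in 1 member, S100A2, at position -52, against 4.61%. TATAAA, on either strand, occurred in 3 of 10, S100A4 (-31), S100A7 (-28) and S100A9 (-29), against 5.47%. These are matches of letters and not shown to be bound sites, and no match says only that the letters are not in the window.

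The 10 members together took between 1.33% and 1.85% of the reads counted on genes in OKF6, between 0.868% and 1.23% in SCC25 +YBX1 and between 0.0487% and 0.0586% in SCC15 +YBX1. Reads counted lay between 4075290 and 6118501 per library. The normalized library sizes that the values were divided by lay between 4434131 and 7238679, so 1 read was worth 0.138 to 0.226 CPM, reads scaled to that size. Levels are given as log2 CPM, where a gene with no read came out near -3.57 in SCC15 +YBX1 replicate 2. Each read marks the 3′ end of an mRNA and levels are not divided by gene length, so they are compared for a gene between groups and not between genes. In bulk RNA, fewer cells expressing a gene and less RNA per cell cannot be told apart. Among the OKF6 libraries, replicate 1 differed most from the others. Its root mean square distance from the mean of the other libraries was 0.885 log2 units over the genes, against 0.714 and 0.569 for replicates 2 and 3. Myeloid cells, another source of S100A8 and S100A9, were represented by 1 of 9 listed markers, CD14, at 8.53 CPM or less in every library, and the other 8 markers were not among the genes tested. None of 4 melanocyte markers was among them, and 2 of 6 fibroblast markers were, summing to at most 97.9 CPM.

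**Figure D1:**
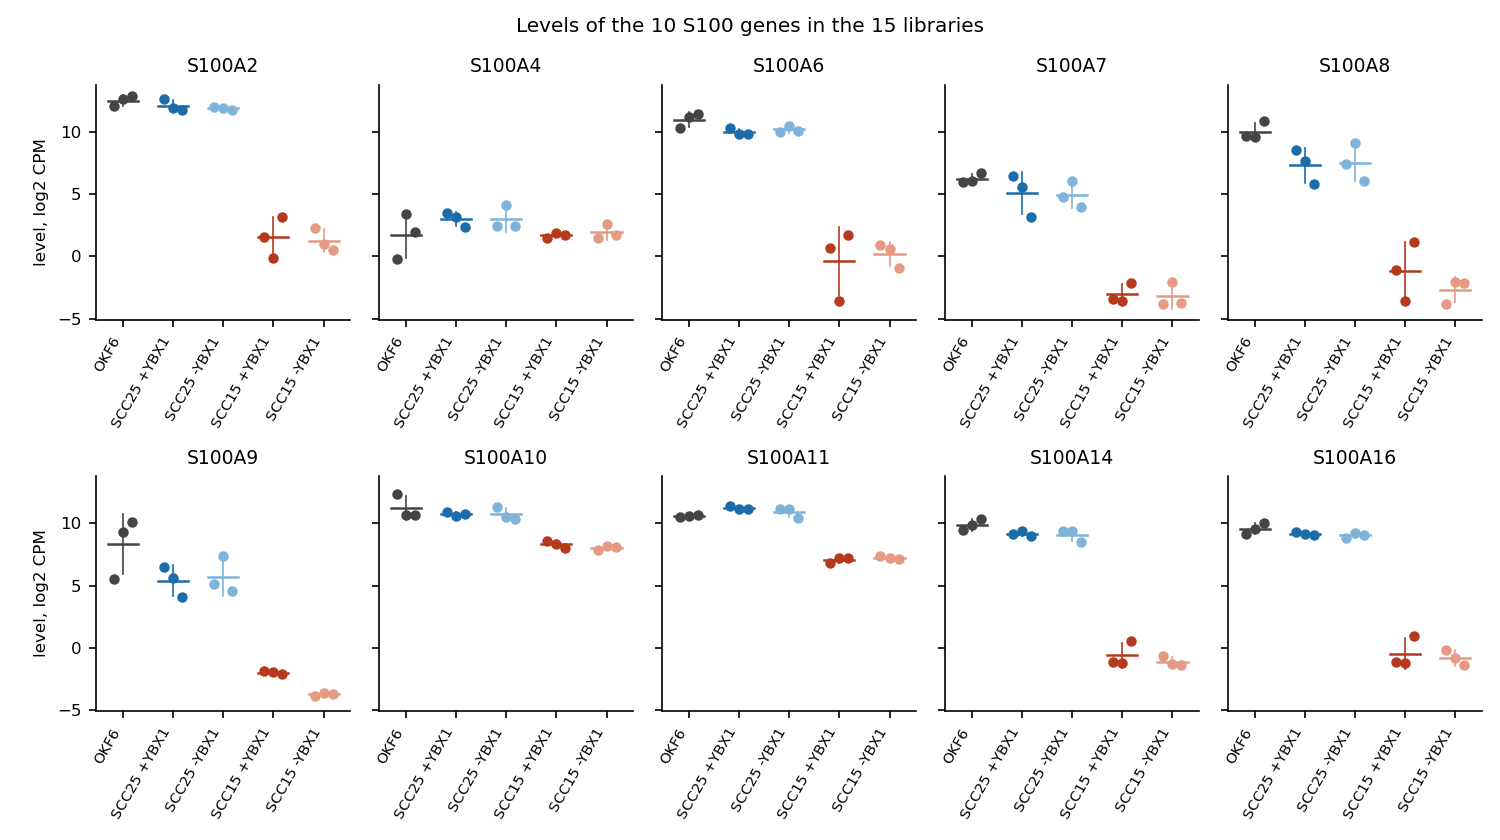
Levels of the 10 S100 genes (log2 CPM, vertical axis) in the 15 libraries by group (horizontal axis); points are libraries, horizontal bars group means and vertical bars 1 SD. S100A2, S100A6, S100A7, S100A8, S100A9, S100A14 and S100A16 fall to between -3.86 and 3.15 in SCC15, S100A10 and S100A11 stay between 6.81 and 8.61, and S100A4 is low in every group.

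Compared with OKF6, most of the set was close to absent in SCC15 +YBX1 cells. In all, 9 of 10 members were lower and none was higher in limma at an adjusted p under 0.05, the adjustment being that of Benjamini and Hochberg over the 12995 genes. Of all genes tested 23.4% were called lower and 26.9% higher, 50.3% in either direction. The median log2 difference of the members, SCC15 minus OKF6, was -10.17, against 0.10 over all genes. The same 9 did not overlap between the libraries of the groups, against 25.5% of all genes that were lower without overlap. Against SCC25 +YBX1 again 9 of 10 members were lower and none higher, with a median of -8.31 against -0.01 over all genes, where 23.6% of all genes were called lower and 43.6% in either direction. All 10 were lower in SCC15 than in SCC25 without overlap, against 34.1% of all genes. These comparisons share the SCC15 libraries. Setting the library medians equal moved the median of all genes from 0.10 to 0.26 against OKF6 and from -0.01 to 0.14 against SCC25, far less than the member differences.

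The calprotectin genes were among those close to 0. S100A8 stood at 9.67, 9.55 and 10.86 log2 CPM in OKF6, at 8.56, 7.62 and 5.80 in SCC25 +YBX1 and at -1.14, -3.57 and 1.16 in SCC15 +YBX1. In reads, the SCC15 values were 2, 0 and 14. No SCC15 library came within 4 log2 units of the lowest library of the other lines. The log2 difference from OKF6 was -11.21 (SE 1.02, adjusted p = 5.94e-06), and with reads summed over the libraries the CPM differed 1335-fold, with a 95% counting interval of 822 to 2336. That ratio rests on replicate 3, and without it, a setting added after these values were seen, 2 SCC15 reads remained and the ratio was 6810 (interval 1885 to 56236). S100A9 stood at 5.56, 9.28 and 10.10 in OKF6, at 6.48, 5.65 and 4.08 in SCC25 +YBX1 and at -1.87, -1.98 and -2.11 in SCC15 +YBX1, where each library held 1 read. Its difference from OKF6 was -10.30 (SE 0.99, adjusted p = 8.89e-06) and the summed ratio 3646, with an interval of 1247 to 17685 that rests on 3 reads. S100A7 stood between 5.98 and 6.70 in OKF6 and gave 1 read in the 3 SCC15 +YBX1 libraries together, which is under the floor of 3 reads. The summed ratio was 1417, with an interval of 254 to 56030. The fitted log2 difference was called (adjusted p = 2.7e-06), but its size depends on the reads added before the log, and it ran from -9.37 to -7.62 over the alternatives, the last with 2 reads added. The counting intervals here cover counting error only, and whether every counted read came from SCC15 cells was not tested.

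S100A14, S100A16, S100A2 and S100A6 behaved alike. S100A14 stood at 9.45, 9.84 and 10.36 in OKF6 and at -1.14, -1.25 and 0.55 in SCC15 +YBX1, a log2 difference of -10.49 (SE 0.43, adjusted p = 6.21e-08). For its neighbour S100A16 the values were 9.13, 9.53 and 10.04 in OKF6 and -1.14, -1.25 and 0.94 in SCC15 +YBX1, a difference of -10.04 (SE 0.49, adjusted p = 1.41e-07). The groups are separated by more than 8 log2 units in both genes. S100A2, of basal keratinocytes, stood at 12.04, 12.62 and 12.89 in OKF6, at 12.65, 11.92 and 11.77 in SCC25 +YBX1 and at 1.59, -0.11 and 3.15 in SCC15 +YBX1. Its 78 reads in the SCC15 +YBX1 libraries compare with 94863 in OKF6, a 1398-fold lower CPM (interval 1120 to 1769), and the log2 difference was -10.98 (SE 0.64, adjusted p = 3.51e-07). S100A6, at 10.27, 11.20 and 11.42 in OKF6, stood at 0.63, -3.57 and 1.73 in SCC15 +YBX1 with 8, 0 and 21 reads. Its difference was -11.37 (SE 1.03, adjusted p = 5.71e-06).

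The reads that remained were not even over the SCC15 +YBX1 libraries. Replicate 3 held 57 of the 78 S100A2 reads, 21 of 29 for S100A6, 14 of 16 for S100A8, 9 of 13 for S100A14 and 12 of 16 for S100A16. The same library held the most KRT5 reads (53, against 15 and 2) and KRT14 reads (20, against 4 and 4), both keratins of basal keratinocytes, and the summed level of 8 keratinocyte markers was 21.7 CPM in it, against 8.56 and 4.38 in the others. OKF6 libraries summed to between 11064 and 21632 for these markers, and all 8 were lower in SCC15 than in OKF6 and than in SCC25. The simple-epithelium keratins KRT8, KRT18 and KRT19 summed to between 55.9 and 58.8 CPM in SCC15 +YBX1 and between 1353 and 1737 in OKF6. Of these 3, 2 were called lower in SCC15 than in OKF6 and all 3 lower than in SCC25, where 23.4% and 23.6% of all genes were. SCC15, a carcinoma line by its label, had 10 KRT19 reads against 20074 in OKF6. KRT18 was still expressed, with 970 reads against 4266, and KRT8 had 48 against 121. Over the 3 SCC15 +YBX1 libraries KRT5, KRT14 and KRT17 had 70, 28 and 63 reads, against 134500, 41844 and 61709 in OKF6. The part of the markers in the remaining S100 reads was not tested, nor whether these few reads came from SCC15 cells. The fold sizes are therefore ratios of the reads counted in the libraries. The 9 members called lower in SCC15 than in OKF6 were also called with any 1 of the 6 libraries left out, but the sizes of the largest differences moved with single libraries. Without SCC15 +YBX1 replicate 3 the log2 difference was -11.78 for S100A2, -12.43 for S100A6, -12.38 for S100A8 and -10.76 for S100A16. Without replicate 2 it was -10.15 for S100A2, -9.78 for S100A6 and -10.01 for S100A8. S100A9 was at -11.68 without OKF6 replicate 1 and at -9.41 without OKF6 replicate 3.

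S100A10 and S100A11, the annexin partners, were lower in SCC15 but still plainly expressed. S100A10 stood at 12.36, 10.69 and 10.70 in OKF6, at 10.93, 10.60 and 10.78 in SCC25 +YBX1 and at 8.61, 8.38 and 7.997 in SCC15 +YBX1, with between 1658 and 2138 reads per library. SCC15 minus OKF6 was -2.92 on the log2 scale, a 7.58-fold lower level (SE 0.41, adjusted p = 0.000135). OKF6 replicate 1 was 3.17-fold above the lowest OKF6 library, and leaving out 1 library at a time the difference ran from -3.20 to -2.37. S100A11 stood at 10.52, 10.59 and 10.71 in OKF6 and at 6.81, 7.20 and 7.18 in SCC15 +YBX1. It was 11.7-fold lower (log2 difference -3.54, SE 0.20, adjusted p = 2.97e-07). Against SCC25 the differences were -2.44 for S100A10 (adjusted p = 0.000629) and -4.15 for S100A11 (adjusted p = 1.37e-07). S100A11 shares 3′ end sequence with other loci to a small extent, as 4 of 86 pieces of 75 bases mapped as well elsewhere in hg38. For S100A7 it was 9 of 71, and for the other members none.

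S100A4, the mesenchymal member, was low in every line and was not higher in the line described as mesenchymal-like. It stood at -0.21, 3.39 and 1.99 in OKF6 with 4, 46 and 23 reads, at 1.497, 1.86 and 1.73 in SCC15 +YBX1 with 15, 21 and 21 reads, and at 3.48, 3.13 and 2.35 in SCC25 +YBX1. The SCC15 values lie inside the range of OKF6 and below all 3 SCC25 values. The difference of SCC15 from OKF6 was -0.03 (SE 0.78, adjusted p = 0.98), with a 95% interval from -1.74 to 1.69, and its sign turned with the scaling, to 0.14 with library medians set equal. Against SCC25 it was -1.29 (SE 0.78, adjusted p = 0.203, interval -3.01 to 0.42). Fitting only those 2 lines brought the adjusted p to 0.0141. Set against SCC25, 4 of 7 listed mesenchymal markers stood higher in SCC15 and 2 lower, where 20% of all genes were called higher and 23.6% lower. CDH2 was 2.05, ZEB2 3.18, ZEB1 3.55 and SPARC 6.28 log2 units above SCC25, while FN1 differed by -6.79 and VIM by -1.38. ZEB2 and SPARC had only 5 and 10 reads over the SCC25 +YBX1 libraries, against 51 and 726 in SCC15 +YBX1. The sizes of these 2 differences depend on the reads added before the log. TWIST1 was not called (0.81, adjusted p = 0.634). The summed level of the 7 was lowest in SCC15 +YBX1, at 436 to 461 CPM, against 764 to 1903 in OKF6 and 2410 to 3139 in SCC25 +YBX1. That sum follows the most abundant genes. In OKF6 FN1 had 16147 reads, SPARC 2242 and VIM 1493, against 319, 726 and 5625 in SCC15 +YBX1. Gene by gene, 4 of the 7 were called higher in SCC15 than in OKF6 and 1 lower, where 26.9% and 23.4% of all genes were. Their median difference from OKF6 was 1.98, against 0.10 over all genes. The span of S100A4 in the annotation holds S100A3 on the same strand. Reads mark 3′ ends, and these lie apart, at 153543613 for S100A4 and 153547329 for S100A3. How reads of the overlap were counted is not known.

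**Figure D2:**
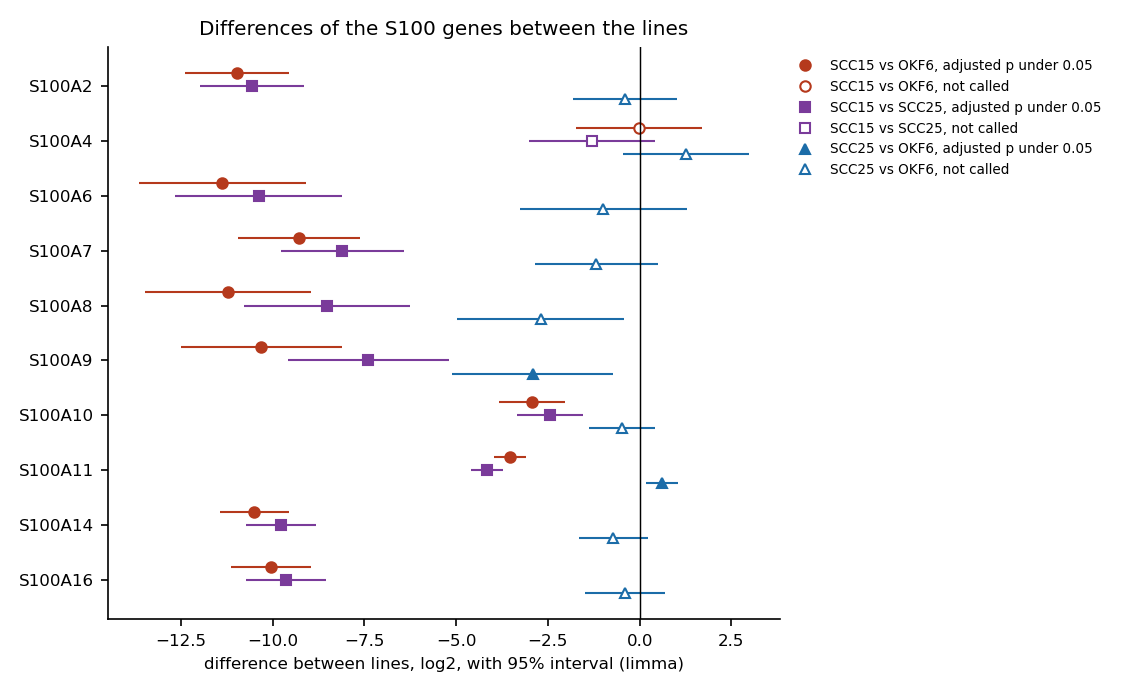
Difference in log2 CPM of each S100 gene between the lines (horizontal axis) with the 95% interval of limma; filled symbols have an adjusted p under 0.05. SCC15 against OKF6 and against SCC25 lies between -11.37 and -2.44 for every member but S100A4, and SCC25 against OKF6 lies between -2.91 and 1.27.

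SCC25 +YBX1 cells kept the whole set at levels much nearer to OKF6. Of the 10 members, 1 was called higher and 1 lower, or 2 of 10, where 18.9% of all genes were called higher and 11.3% lower, 30.2% in all. The median difference, SCC25 minus OKF6, was -0.60 against 0.13 over all genes. S100A11 was 0.61 log2 units higher, or 1.53-fold (SE 0.20, adjusted p = 0.0383), with the SCC25 libraries at 11.39, 11.13 and 11.14, all above those of OKF6. S100A9 was lower, by -2.91 (SE 0.99, adjusted p = 0.0479), and OKF6 replicate 1 lay within the SCC25 range. The libraries of S100A8 and S100A14 also stood below OKF6 without overlap, at differences of -2.70 (SE 1.02, adjusted p = 0.0696) and -0.72 (adjusted p = 0.227) that did not pass the threshold. Of all genes 18.1% were lower without overlap. For the members not called the intervals were wide, from -3.26 to 1.29 for S100A6 and from -1.82 to 1.01 for S100A2. Both calls were close to the threshold and rested on single libraries. Leaving out any SCC25 library or OKF6 replicate 3 left no member called. Without OKF6 replicate 1 both were called, with S100A9 at -4.29 (adjusted p = 0.000346), and without OKF6 replicate 2 S100A4 was called alone, 2.10 units higher in SCC25 (adjusted p = 0.0357). S100A8 passed the threshold in 4 of the other settings, among them voom weights (adjusted p = 0.00621). Squamous differentiation genes, which mark the upper layers of the epithelium, summed to between 1282 and 5190 CPM in OKF6 and between 506 and 1434 in SCC25 +YBX1, and their part in the lower S100A8 and S100A9 was not tested.

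Within SCC25, the antimicrobial members S100A7, S100A8 and S100A9 had the widest spread between replicates of the 10. In SCC25 +YBX1 the highest library stood 9.53-fold above the lowest for S100A7, 6.75-fold for S100A8 and 5.27-fold for S100A9. For S100A6, S100A10, S100A11, S100A14 and S100A16 this ratio lay between 1.16 and 1.41, and it was 1.85 for S100A2 and 2.20 for S100A4. The SD of S100A8 was 1.40 log2 units, larger than in 99.9% of the 860 genes within 0.5 log2 units of its mean. All 3 were highest in replicate 1 and lowest in replicate 3. In SCC25 -YBX1 the ratio was 4.36 for S100A7, 7.95 for S100A8 and 7.03 for S100A9, but S100A4 was not far below S100A7, with a ratio of 3.22 and an SD of 0.97 against 1.07. The other 6 members lay between 1.18 and 1.93. The 3 were all highest in replicate 2 of that group, with S100A8 at 7.41, 9.07 and 6.07, and lowest in replicate 3. The summed keratinocyte markers had the same order, with 12635, 10168 and 5317 CPM in SCC25 +YBX1 and 6958, 19180 and 4008 in SCC25 -YBX1. The summed squamous differentiation genes stood at 1434, 1108 and 506 and at 584, 2170 and 621, lowest in replicate 3 of the first group and in replicate 1 of the second. The part of either list in this spread was not tested.

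**Figure D3:**
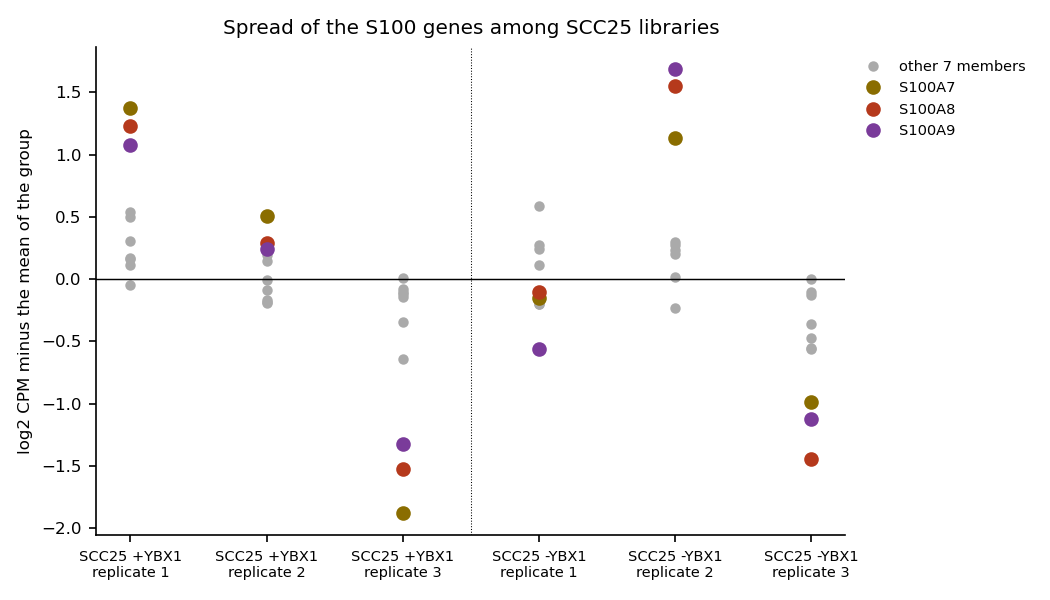
Deviation of each S100 gene from the mean of its group (log2 CPM, vertical axis) in the 6 SCC25 libraries (horizontal axis), with S100A7, S100A8 and S100A9 coloured and the other 7 members grey. S100A8 and S100A9 stand above the grey points in replicate 1 of SCC25 +YBX1 and replicate 2 of SCC25 -YBX1 and below them in replicate 3 of both, and the SD of S100A8 is 1.40 in SCC25 +YBX1 and 1.498 in SCC25 -YBX1.

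After YBX1 knockdown no member passed an adjusted p under 0.05. The +YBX1 libraries used here are those of the comparison of the lines. YBX1 itself, a cold-shock protein that binds DNA and RNA, fell from 6.74, 6.31 and 6.62 log2 CPM to 5.26, 4.70 and 3.66 in SCC25, and from 5.11, 5.56 and 6.00 to 3.36, 3.71 and 3.13 in SCC15. All -YBX1 libraries lay below all +YBX1 libraries of their line. The differences were -2.01 (SE 0.35, adjusted p = 0.290) and -2.15 (SE 0.35, adjusted p = 0.326), and neither passed the threshold over all genes, as 0% of the 12995 genes did in either line. At an unadjusted p under 0.05 limma called 0 members in SCC25, where 401 of all genes (3.09%) passed, and 1 in SCC15, where 302 (2.32%) did. That gene was S100A9 (log2 difference -1.75, SE 0.69, unadjusted p = 0.0235, adjusted p = 1.00), which had 1 read in each SCC15 +YBX1 library and 0 reads in each SCC15 -YBX1 library, a level below the 3 reads taken as the floor. The size of that difference depends on the reads added before the log, and it is not read as a fold change. It ran from -1.78 to -0.75 over the settings that kept every library. S100A9 was the only member without overlap in that direction, where 3.78% of all genes were, and in SCC25 none was, where 3.76% were.

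In SCC25, where every member is expressed, the log2 differences lay between -0.31 and 0.26. For S100A8 the same-numbered libraries moved by -1.15, 1.44 and 0.27, in different directions, with a mean of 0.19 (SE 1.06, interval -2.09 to 2.47). S100A9 moved by -1.38, 1.70 and 0.45, with a mean of 0.26 (SE 0.69, interval -1.22 to 1.74). These intervals leave room for changes of 4-fold in S100A8 in either direction. S100A10 was bounded far more tightly, at -0.04 (interval -0.56 to 0.47), as was S100A11, at -0.31 (interval -0.74 to 0.12). S100A2 stood at 12.02, 11.93 and 11.78 after knockdown, within the range before it, and its difference was -0.20 (interval -1.53 to 1.12). S100A6 (0.21), S100A14 (-0.08) and S100A16 (-0.12) likewise overlapped between the groups.

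In SCC15, the members close to 0 stayed there. Together the 10 took between 0.0486% and 0.0506% of counted reads in SCC15 -YBX1, most of it S100A10 and S100A11. S100A10 stood at 7.86, 8.16 and 8.14 after knockdown, overlapping the levels before it, a difference of -0.28 (interval -0.79 to 0.24). S100A11 stood at 7.39, 7.22 and 7.15, a difference of 0.19 (interval -0.24 to 0.62). S100A2 had 35, 12 and 9 reads, S100A6 had 13, 9 and 3, S100A14 had 4, 2 and 2 and S100A16 had 6, 3 and 2. S100A7 had 1 read in the group, so that a difference with the knockdown was not detectable at this depth. S100A8 had 2 reads, against 16 in SCC15 +YBX1, of which 14 came from replicate 3. Its fitted log2 difference was -1.51 (interval -3.78 to 0.77) and was not called. The difference of the knockdown effect between the lines (SCC15 minus SCC25) passed for no member, with 294 of all genes (2.26%) and 0 members at an unadjusted p under 0.05 in limma. Between the -YBX1 groups SCC15 remained below SCC25 in 9 of 10 members, where 29.1% of all genes were called lower, 28% higher and 57.2% in either direction, with S100A4 again the exception (-1.03, adjusted p = 0.0862). S100A9 had no read in SCC15 -YBX1 and 1132 in SCC25 -YBX1, which is at least 494-fold higher against a floor of 3 reads over the group.

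**Figure D4:**
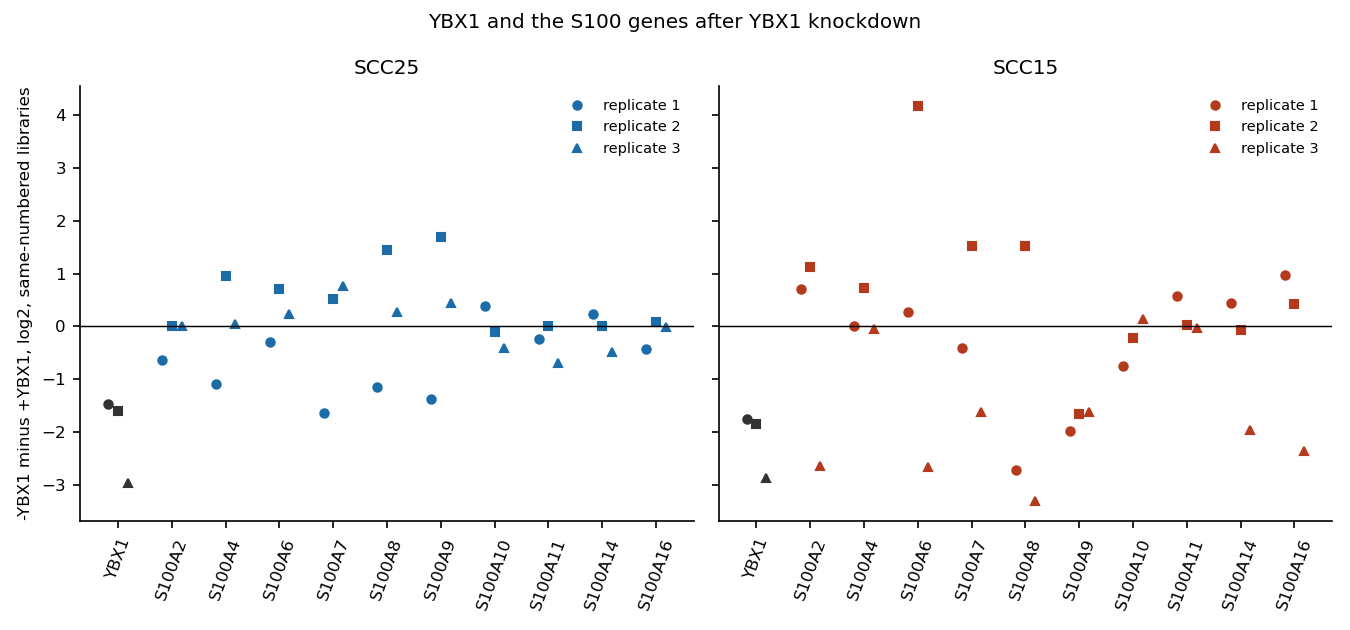
Log2 difference between same-numbered -YBX1 and +YBX1 libraries (vertical axis) for YBX1 and the 10 S100 genes in SCC25 and SCC15. YBX1 lies between -2.96 and -1.48 in every pair. The S100 genes lie on both sides of 0, other than S100A9 in SCC15, which is a change from 1 read to 0 in each pair.

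The order of the groups was alike in most members. In S100A2, S100A6, S100A7, S100A8, S100A9, S100A10, S100A14 and S100A16 the mean was highest in OKF6, then in the SCC25 groups, and lowest in the SCC15 groups. The SCC25 groups overlapped with each other for every member, and the SCC15 groups with each other for every member but S100A9. OKF6 did not overlap with the SCC25 group next to it for S100A8 and S100A14, and did for the others. In S100A11 the SCC25 groups stood above OKF6, with SCC25 -YBX1 overlapping it. In S100A4 every neighbour in the order overlapped. Over the 5 group means, centred for each gene, the most alike members were S100A14 and S100A16 (root mean square difference 0.22 log2 units), which are neighbours on the chromosome, followed by S100A2 and S100A14 (0.29) and S100A2 and S100A6 (0.36). S100A8 and S100A9 differed by 0.45 and S100A10 and S100A11 by 0.64.

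Among the 6458 other genes above the median level, the gene nearest to each member in this measure, over 5 groups, was an epithelial one for several members. It was KRT6B for S100A2 (0.18), KRT14 for S100A14 (0.29), KRT17 for S100A16 (0.28) and CDH1 for S100A7 (0.36). The metallothionein gene MT1E was nearest to S100A6 (0.12). For S100A10, S100A11 and S100A4 they were SCD (0.09), PLK2 (0.14) and NIT2 (0.07). These are descriptions over group means that share the contrast between SCC15 and the other lines.

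The members were not alone in their part of chromosome 1. The stretch from S100A10 to S100A14 held 26 genes of the tables, and 14 of the 16 that are not members were lower in SCC15 than in OKF6 and none higher, where 23.4% of all genes were called lower. Their median difference was -7.76, or -7.39 with the 5 that had no read in SCC15 +YBX1 set to their bound, a floor of 3 reads over the group. Against SCC25 all 16 were lower in SCC15, where 23.6% of all genes were. In SCC25 5 of the 16 were lower than in OKF6 and 1 higher, where 11.3% of all genes were called lower and 18.9% higher, 30.2% in all. The median difference of the 16 in SCC25 was -1.59, against 0.13 over all genes. In SCC15 most of the 16 were down to single reads, as 13 had 3 reads or fewer in the SCC15 +YBX1 libraries together. IVL had 1 read there against 581 in OKF6, the small proline-rich genes SPRR1A and SPRR1B had 3 against 7731 and 7 against 19253, and the late cornified envelope gene LCE3D had 1 against 619. All 4 encode proteins of the cornified envelope. None of the 10 table genes flanking the stretch, 5 on each side, was called lower in SCC15 than in OKF6. THEM4, next to S100A10, differed by 0.21 from OKF6 (adjusted p = 0.616), and on the other side S100A13 by -0.62 (adjusted p = 0.0681), CHTOP by 0.90 (adjusted p = 0.00461) and ILF2 by 2.12 (adjusted p = 1.73e-05). S100A4, inside the stretch, is the exception among the members, while S100A3, within its span, had no read in SCC15 +YBX1.

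**Figure D5:**
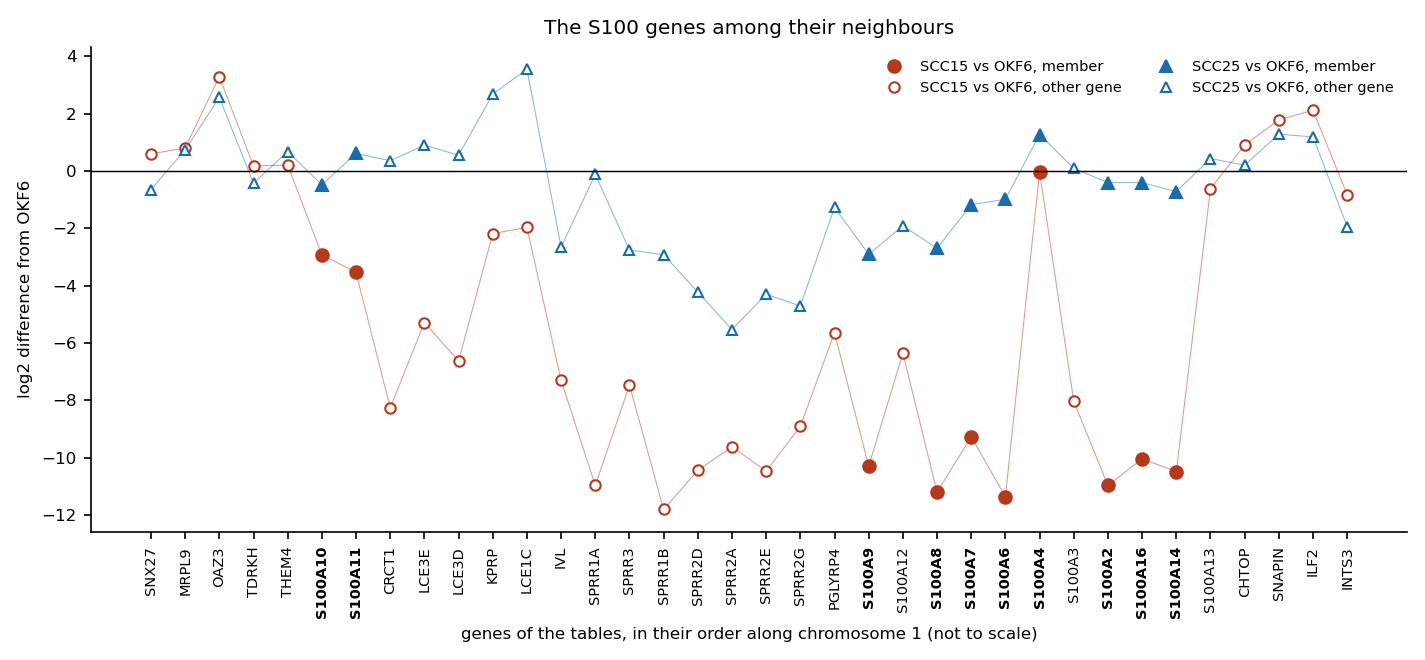
Log2 difference from OKF6 (vertical axis) of SCC15 and SCC25 for the 36 genes of the tables around the S100 genes, in their order along chromosome 1 (horizontal axis, not to scale); filled symbols are the 10 members. From S100A10 to S100A14 the SCC15 points lie below 0, those of 5 genes with no SCC15 read at a depth that the reads added before the log set, with S100A4 at -0.03, and the neighbours on both sides lie around or above 0 apart from S100A13 (-0.62) and INTS3 (-0.83).

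Of 11 other S100 genes listed, 4 were among the genes tested, and 3 were lower in SCC15 than in OKF6 and all 4 lower than in SCC25. S100A3, a hair-cuticle member, had between 88 and 154 reads per library in OKF6 and 0 in every SCC15 library, so that OKF6 was at least 134-fold higher against a floor of 3 reads over the group. S100A12, a relative of S100A8 and S100A9, had between 23 and 60 reads in OKF6 and 0 in every SCC15 library, at least 43.7-fold. S100P, which lies on chromosome 4, differed from OKF6 by -5.37 in SCC15 (adjusted p = 3.48e-05) and by -2.59 in SCC25 (adjusted p = 0.01). S100A13 was lower in SCC15 than in SCC25, by -1.05 (adjusted p = 0.0075). None of the 7 listed genes of the fused type, such as FLG, was among the genes tested.

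Among genes for partners of the S100 proteins, most annexin and AHNAK genes were lower in SCC15 than in OKF6, whereas most of the other partners were higher. Of 12 annexin and AHNAK genes tested of 15 listed, 10 were lower and 1 was higher in SCC15 than in OKF6, where 23.4% and 26.9% of all genes were, with a median difference of -3.76 against 0.10 over all genes. ANXA1, the partner of S100A11, differed by -9.08 (adjusted p = 3.72e-08), and ANXA2, that of S100A10, by -4.53 (adjusted p = 2.38e-07). AHNAK, a scaffold bound by S100A10 and annexin A2, differed by -6.15 (adjusted p = 4.36e-07), and ANXA3 by -7.20 (adjusted p = 6.61e-07). ANXA6 was the one that was higher, by 3.86 (adjusted p = 0.000173). In SCC25 2 were higher than in OKF6 and 5 lower, where 18.9% and 11.3% of all genes were. ANXA3 was among the lower ones (-2.03, adjusted p = 0.00867). ANXA10, called higher, had no read in OKF6 and 2, 2 and 12 in SCC25 +YBX1, at least 5.47-fold higher against the floor of 3 reads over the group. Of 10 genes for other partners, 6 were higher and 3 lower in SCC15 than in OKF6, where 26.9% of all genes were called higher and 23.4% lower. Their median difference was 1.02, against 0.10 over all genes. PLAU, an extracellular protease of the plasminogen system that S100A10 serves, differed by -7.95 (adjusted p = 8.13e-07), MYH9 by -1.90 (adjusted p = 3.81e-05) and PLAT by 2.56 (adjusted p = 0.0202). Of 5 receptors of extracellular S100 proteins, BSG and ALCAM were tested. BSG, a receptor of S100A9, differed from OKF6 by -1.40 in SCC15 (adjusted p = 7.53e-05) and by -1.22 in SCC25 (adjusted p = 0.000688). AGER, TLR4 and CD36 were not among the genes tested. With the knockdown none of the genes in these lists passed the threshold in limma in either line.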

How the data were processed

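RNA of 15 libraries was read with QuantSeq 3′ FWD. The authors used Cutadapt for trimming, HISAT2 for alignment (hg38), featureCounts for gene counts and limma for filtering and normalisation. What they deposited were log2 CPM values of the authors' own normalisation, log2 of the reads plus 0.5 per normalized library size, in a table of the lines and a table of the knockdown, which list the same 12995 genes (12719 with a symbol) and share 6 libraries. Whole reads came back for 100% of values, within 0.02 of a read.

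Groups were compared on these log2 values with limma 3.58.1 in R 4.3.3 (variance trend, two-sided, Benjamini-Hochberg over all genes, threshold 0.05), with all groups of a table in the fit and no replicate term. The fit was tested on simulated data with the same dispersion for every gene. Changes were set only in well-counted genes, so that test does not cover members with few reads in SCC15 or with a wide spread. Replicate numbers are those of the labels. Deviations from the group means correlated in every same-numbered pair across the knockdown (0.135, 0.470 and 0.425 in SCC25, and 0.498, 0.312 and 0.117 in SCC15), and not in every pair between lines. A fit with the number as a block was an alternative. The others were only the groups compared, equal medians, quantile normalization, no trend, robust empirical Bayes, 2 reads added before the log, voom weights, genes above the first quartile, an adjusted p under 0.01, and each library left out in turn.

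Pieces of 75 bases from 3′ ends were mapped with minimap2 2.31, and figures drawn with matplotlib 3.10.9. The members and gene lists were chosen with earlier results of these data known. All members, the called genes of the S100 list, up to 4 called genes with the largest change per other list, and the nearest gene to each member are named, apart from some that are not reported here. KRT5 and KRT14 in the SCC15 libraries, the neighbours on chromosome 1 and CD14 were named after their values were seen.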

Additional observations from a re-analysis of the deposited data

How the results depend on the processing

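The 9 members lower in SCC15 than in OKF6, and the 9 lower than in SCC25, were 9 or 10 in every alternative and with any 1 library left out. Between the -YBX1 groups the count was 9 or 10, apart from 7 when the lowest quartile of genes was dropped, where S100A7 and S100A9 were not tested. The knockdown called 0 members in every alternative, and the replicate block changed no call there. Of SCC25 against OKF6, where 2 members were called, the count was 0 with the replicate block, although same-numbered libraries of these lines did not correlate in every pair (-0.0466, 0.160 and -0.147) and share only a number. It was 0 without the variance trend, 0 at an adjusted p under 0.01, and 1 with only the groups compared. It ran from 0 to 2 with 1 library left out. As a share of counted reads in place of the normalized library size, the members summed to 533 CPM in SCC15 +YBX1 (472 normalized) and 493 in SCC15 -YBX1 (429 normalized).

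Signs turned only where a difference was not called. SCC15 minus OKF6 for S100A4 was 0.14 with equal medians and 0.014 with voom weights. With quantile normalization the knockdown difference was 0.012 for S100A10 in SCC25 and 0.085 for S100A7 in SCC15, and the difference between the knockdown effects 0.20 for S100A7. With 2 reads added it was -0.10 for S100A6. With 1 library left out in turn, SCC15 minus OKF6 ran from -0.99 to 0.81 for S100A4, and SCC25 minus OKF6 from -0.76 to 0.071 for S100A10. The knockdown difference in SCC25 ran from -0.37 to 0.068 for S100A2, from -0.59 to 0.26 for S100A4, from -1.05 to 0.57 for S100A7, from -0.59 to 0.91 for S100A8, from -0.59 to 0.82 for S100A9, from -0.34 to 0.14 for S100A10 and from -0.21 to 0.20 for S100A14. In SCC15 it ran from -1.10 to 0.53 for S100A2, from -0.10 to 0.45 for S100A4, from -0.99 to 1.66 for S100A6, from -0.75 to 0.30 for S100A7, from -0.85 to 0.051 for S100A14 and from -0.71 to 0.39 for S100A16. The difference between the lines in the knockdown effect ran from -0.90 to 0.73 for S100A2, from -0.074 to 0.82 for S100A4, from -1.20 to 1.45 for S100A6, from -0.74 to 0.88 for S100A7, from -0.41 to 0.063 for S100A10, from -0.77 to 0.13 for S100A14 and from -0.59 to 0.51 for S100A16. The cause of these moves was not tested. Depth limits S100A7 and S100A9 in SCC15, with 3 reads or fewer in each group, and S100A8 after the knockdown, with 2.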

Other observations

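S100P, an S100 gene outside the chromosome 1 cluster, had 11, 4 and 2 reads in the SCC15 +YBX1 libraries and 63, 1 and 0 reads in the SCC15 -YBX1 libraries, so that 63 of the 64 reads after knockdown came from replicate 1. The same library held 35 of the 56 S100A2 reads of its group.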
